A study of Mus musculus with 27 samples.

Results

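The 10 genes described here belong to the Notch pathway and were followed through the development of the mouse retina: the receptors Notch1 and Notch3, the ligands Dll1, Dll3, Dll4 and Jag1, the receptor-modifying enzyme Lfng, and the target genes Hes1, Hes5 and Hey1. They were taken by symbol from a table of 38168 features, and all 10 genes were found, each in a single row. Whole retinas of wild type C57BL/6J mice were sequenced in 27 libraries at embryonic days 14 and 17 (E14 and E17, 3 libraries each) and at postnatal days 1 (P1, 4 libraries), 6 (P6, 3), 15 (P15, 4), 28 (P28, 4) and 60 (P60, 6). No treatment is given for any group, and all mice were kept in a light and dark cycle. The study's methods describe pools of embryos or of postnatal mice, with mixed sexes up to P1 and males thereafter, and P60 held pools as well as single mice, which the labels do not tell apart. The labels give 3 retinas per library, which differs from the pool sizes of the methods. Sex and pool size therefore cannot be told apart from age where P1 or an earlier age is compared with a later one.

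Notch is a receptor on the cell surface that is activated by Delta-like or Jagged ligands on a neighbouring cell. Activation releases the intracellular part of the receptor, which enters the nucleus, joins the DNA-binding protein RBPJ and turns on genes of the Hes and Hey families, which are repressors of transcription. In the developing retina the pathway is known for keeping progenitor cells undifferentiated and for a part in the formation of Müller glia, the radial glia of the mature retina.

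The totals recovered from the CPM table were 7077781 to 11332323 reads per library (median 7969873). They are reads assigned to features and not all reads sequenced, and 1 read was worth 0.0882 to 0.141 CPM (reads of a feature scaled to the total of its library). The lowest correlation between libraries of an age was at least 0.977 at every age but P60, where it was 0.94. The whole retina markers Rax, Six3, Six6, Pax6, Otx2 and Crx had reads at every age. Differences between ages were tested with limma on log2(CPM + 1), in one fit of all libraries over 31760 features. A gene was said to rise or fall where its Benjamini-Hochberg adjusted p was under 0.05 and its log2 fold change was at least 1 in size. On this scale the change of genes near 1 CPM is understated. All log2 fold changes below are on it, and CPM levels are of the gene as deposited. Whole tissue was measured, so fewer cells of a type and less RNA per cell cannot be told apart. Which samples came from separate litters is not stated, and p-values then measure only the spread between these libraries.

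Between embryonic retina (E14 and E17, 6 libraries) and mature retina (P15, P28 and P60, 14 libraries), 9 of the 10 genes fell and Jag1 rose. Over all features tested, 16.1% fell and 14.9% rose in this comparison. The median log2 fold change of the 10 genes was -2.75, against -0.07 over all features. In each of the 10 genes the embryonic and the mature libraries did not overlap, while 23% of all features had every mature library below every embryonic one and 17.4% had every mature library above.

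**Figure D1:**
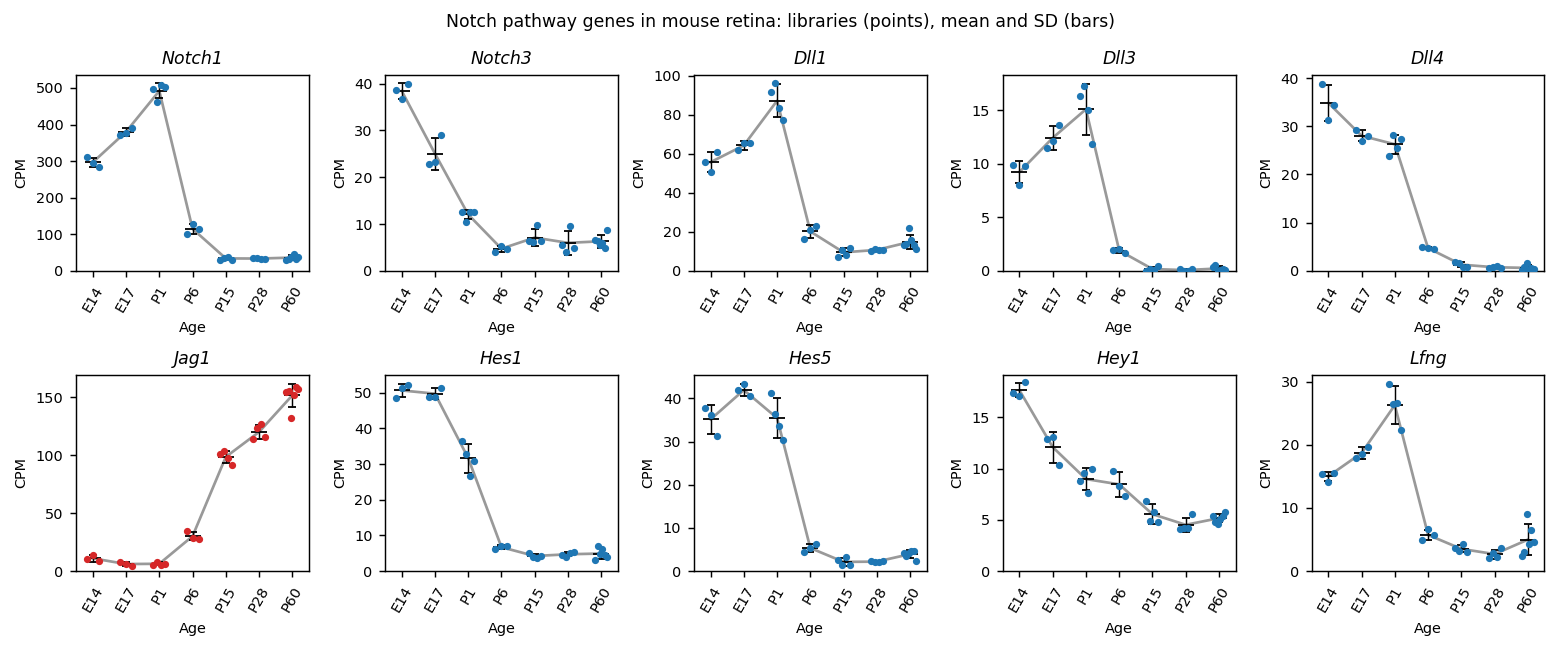
CPM of the 10 genes (vertical axes, linear from 0) at the 7 ages (horizontal axes, evenly spaced and not to scale in days). Points are libraries, and bars give the mean and SD of an age; the grey line joins the means. Notch1, Dll1, Dll3 and Lfng were highest at P1, Notch3, Dll4, Hes1 and Hey1 at E14, Hes5 at E17, and Jag1 at P60.

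Notch1, the most abundant receptor of the pathway per length of transcript before birth, increased up to birth and then fell. Notch1 (Gene ID 18128, GRCm38 chromosome 2, 26457903 to 26516663, minus strand) was at 309.9, 296 and 285 CPM in the E14 libraries and at 372, 378 and 392 CPM at E17. At P1 it was at 496, 462, 508 and 502 CPM, and at P6 at 102, 128 and 114 CPM. The order P1, E17, E14, P6 was without overlap between libraries. At P15 it was at 30.8, 36.1, 38.1 and 30.7 CPM and at P28 at 33.7, 35.2, 32.2 and 32.9 CPM, and the 6 P60 libraries ran from 28.7 to 47.2 CPM with a median of 35.1. These mature ages overlapped one another. The log2 fold change from embryonic to mature retina was -3.25 ± 0.07 (SE; limma, adjusted p = 4.4e-28), and the mean level was 9.8 times lower.

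Notch3, a receptor known from mural cells of blood vessels and also present in neural progenitors, had its highest level at the earliest age. Notch3 (Gene ID 18131, chromosome 17, 32120820 to 32166852, minus strand) was at 38.7, 36.7 and 40.0 CPM at E14, at 22.9, 23.3 and 28.99 CPM at E17 and at 12.5, 10.5, 12.7 and 12.5 CPM at P1. The E14 libraries lay above those of E17, and those of E17 above those of P1. At P6 Notch3 was at 4.10, 5.41 and 4.69 CPM, its lowest mean. At P15 it was at 6.29, 6.06, 9.74 and 6.32 CPM, at P28 at 5.46, 3.93, 9.61 and 4.90 CPM, and at P60 between 4.81 and 8.70 CPM (median 6.10). Libraries of P60 and P28 overlapped those of P15, and those of P28 overlapped those of P6. From embryonic to mature retina Notch3 fell by 2.14 ± 0.13 on the log2 scale (SE; limma, adjusted p = 4.8e-16). The difference from P6 to P15, 0.48, did not pass the test (limma, adjusted p = 0.059).

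The balance of the receptors changed with age. The log2 ratio of Notch3 to Notch1 within a library was -2.92 ± 0.10 (SD, n = 3) at E14, -3.88 ± 0.15 (n = 3) at E17, -5.24 ± 0.06 (n = 4) at P1 and -4.34 ± 0.01 (n = 3) at P6. It was -2.12 ± 0.22 (n = 4) at P15, -2.37 ± 0.52 (n = 4) at P28 and -2.35 ± 0.36 (n = 6) at P60. The ratio was lowest at P1. It was 1.11 higher in the 14 mature than in the 6 embryonic libraries (exact permutation test, two-sided, p = 0.00015, adjusted over 3 ratios p = 0.00023). The E14 libraries, from -2.98 to -2.80, lay partly within the mature range of -2.88 to -1.65, and those of E17 lay below it.

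The Delta-like ligands Dll1, Dll3 and Dll4 all fell after birth. Dll1, the Delta ligand of newly forming neurons (Gene ID 13388, chromosome 17, 15367354 to 15376872, minus strand), was at 55.8, 50.5 and 60.7 CPM at E14, 61.8, 65.4 and 65.8 CPM at E17 and 91.9, 96.2, 83.3 and 77.4 CPM at P1. At P6 it was at 16.4, 21.0 and 23.2 CPM. The P1 libraries were the highest and those of P6 lay below all earlier ones. It was at 7.23, 10.5, 8.28 and 11.8 CPM at P15, at 9.99, 11.4, 10.8 and 10.7 CPM at P28 and at 11.3 to 21.8 CPM at P60 (median 13.5). The libraries of P60 overlapped those of P6, P15 and P28. Dll1 fell by 2.30 ± 0.10 on the log2 scale from embryonic to mature retina (SE; limma, adjusted p = 1.9e-19).

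Dll3, a divergent Delta ligand that acts mainly inside the cell and does not activate the receptor on neighbouring cells, went from moderate levels to a few reads per library. Dll3 (Gene ID 13389, chromosome 7, 28293553 to 28302238, minus strand) was at 9.90, 8.02 and 9.79 CPM at E14, at 11.5, 12.2 and 13.7 CPM at E17 and at 16.3, 17.3, 15.04 and 11.8 CPM at P1. P1 and E17 overlapped, and both lay above E14 in mean. It was at 1.98, 2.06 and 1.66 CPM at P6, from 14, 19 and 12 reads. At P15 the libraries held 0, 1, 1 and 3 reads, at P28 1, 0, 0 and 1 reads, and at P60 0 to 4 reads. A count of 0 allows up to 3 reads, here counting error only, and all libraries of P15 and P28 were at or under that limit. Against the mean limit of 3 reads per library, the level at P15 was at least 4.82-fold lower than at P6, and that at P28 at least 37.7-fold lower than at P1. The fitted log2 fold change from embryonic to mature retina, -3.36 ± 0.12 (SE; limma, adjusted p = 4.1e-22), is no bound: it was -5.69 with a pseudocount of 0.1 and -6.07 with edgeR on recovered reads.

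Dll4, the Delta ligand of angiogenic endothelium that retinal progenitors leaving the cell cycle also make, had the largest fall of the 10 genes on the log2(CPM + 1) scale, though Dll3 fell further with a pseudocount of 0.1 or with edgeR. Dll4 (Gene ID 54485, chromosome 2, 119325784 to 119335962, plus strand) was at 38.8, 31.3 and 34.4 CPM at E14, at 29.1, 26.9 and 28.1 CPM at E17 and at 23.9, 28.2, 25.6 and 27.3 CPM at P1. E14 lay above E17, and E17 and P1 overlapped. At P6 it was at 4.95, 4.65 and 4.55 CPM. At P15 it was at 1.74, 1.71, 0.852 and 0.825 CPM, at P28 at 0.666, 0.843, 0.947 and 0.503 CPM and at P60 at 0.131 to 1.63 CPM (median 0.458), or 1 to 13 reads in the mature libraries. The mature ages overlapped. The log2 fold change was -4.15 ± 0.14 (SE; limma, adjusted p = 7.8e-23), -5.21 with a pseudocount of 0.1 and -5.12 with edgeR on recovered reads.

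Jag1, a Jagged ligand, which shares the receptors with the Delta ligands, was the only one of the 10 genes to rise. Jag1 (Gene ID 16449, chromosome 2, 137081456 to 137116644, minus strand) was at 10.7, 13.9 and 8.42 CPM at E14, at 7.57, 5.91 and 4.76 CPM at E17 and at 5.52, 8.19, 5.65 and 5.92 CPM at P1. Those of E14 lay above those of E17 and P1, which overlapped. At P6 it was at 34.2, 28.6 and 27.6 CPM, at P15 at 101, 104, 97.2 and 91.7 CPM and at P28 at 114, 123, 127 and 116 CPM. At P60 it ran from 132 to 158 CPM with a median of 155. From P6 on, each age lay above the age before it without overlap. Jag1 rose by a log2 fold change of 3.75 ± 0.09 (SE; limma, adjusted p = 4.6e-27), and its mean level was 14.4 times higher in mature than in embryonic retina.

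With the 4 ligands set side by side per length of their exons (CPM per kb), the leading ligand changed. Dll1 held 48.2% ± 2.5 of their summed level at E14, 54.6% ± 1.3 at E17 and 61.0% ± 1.3 at P1, and Jag1 held 6.99% ± 2.2, 3.75% ± 0.93 and 3.19% ± 0.44 (SD, n = 3, 3 and 4). At P6 Dll1 held 40.4% ± 6.5 and Jag1 43.7% ± 5.6 (n = 3), and the libraries of both overlapped. At P15, P28 and P60 Jag1 held 86.5% ± 2.6, 88.2% ± 0.28 and 87.3% ± 3.7 (n = 4, 4 and 6). Jag2, named here after its values were seen, is not in these shares, and with it those of Jag1 would be lower. Its means were 1.54, 1.69 and 1.53 CPM per kb at E14, E17 and P1, against 1.89, 1.04 and 1.085 for Jag1. At P15, P28 and P60 Jag2 was at 2.485, 2.37 and 2.72 CPM per kb, against 2.24, 2.54 and 3.52 for Dll1. The log2 ratio of Jag1 to Dll1 was -2.74 in embryonic and 3.31 in mature libraries, a difference of 6.05 (exact permutation test, two-sided, p = 5.2e-05, the smallest that it can give here, adjusted over 3 ratios p = 0.00015).

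Of the summed level of the 4 receptor genes per kb, with Notch2 and Notch4 added, Notch1 held 64.9% ± 1.8 at E14, 74.3% ± 0.76 at E17, 81.8% ± 0.38 at P1 and 67.3% ± 2.7 at P6 (SD, n = 3, 3, 4 and 3). It held 34.4% ± 1.2 at P15, 35.2% ± 3.5 at P28 and 32.6% ± 3.7 at P60 (n = 4, 4 and 6). Notch2, named here after its values were seen, was at 5.73 CPM per kb at E14 and 3.91 CPM per kb at P60, where Notch1 was at 20.9 and 2.54 CPM per kb. Notch2 was thus below Notch1 at E14 and above it at P60 in mean level per kb.

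**Figure D2:**
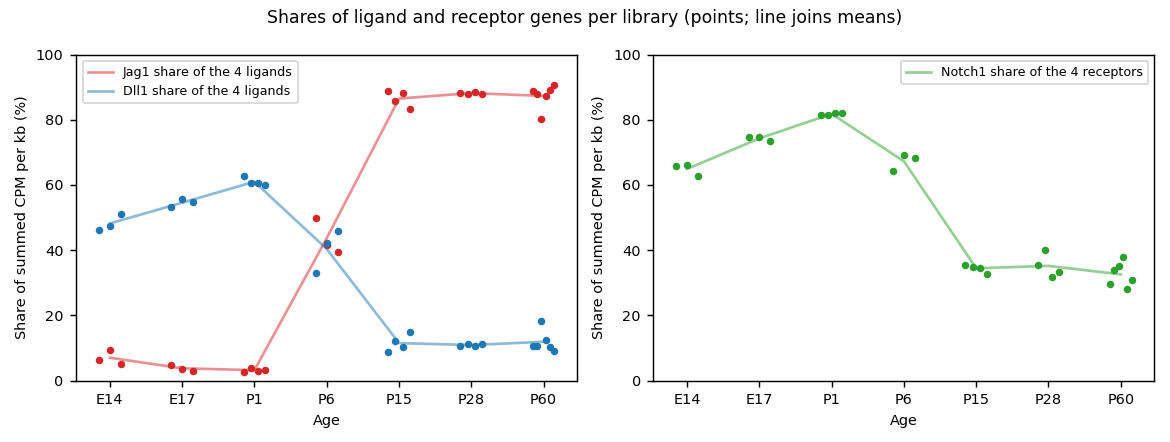
Shares (%) of summed CPM per kb of exon by age (evenly spaced): on the left those of Jag1 and Dll1 among Dll1, Dll3, Dll4 and Jag1, on the right that of Notch1 among Notch1 to Notch4. Points are libraries and lines join the means; Jag1 was at 3.19% at P1, 43.7% at P6 and 86.5% at P15, and Notch1 at 81.8%, 67.3% and 34.4%.

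Lfng is the Fringe enzyme that adds a sugar to Notch receptors and so alters which ligands they answer to. The order of its age means was that of Notch1 and Dll3, and close to that of Dll1. Lfng (Gene ID 16848, chromosome 5, 140607320 to 140615545, plus strand) was at 15.4, 14.1 and 15.5 CPM at E14, at 17.9, 18.5 and 19.7 CPM at E17 and at 29.7, 26.5, 26.6 and 22.4 CPM at P1. These 3 ages did not overlap, and P1 was highest. It was at 4.95, 6.60 and 5.65 CPM at P6, at 3.61, 3.16, 4.26 and 3.02 CPM at P15 and at 1.999, 2.81, 2.30 and 3.65 CPM at P28. At P60 it ran from 2.36 to 9.03 CPM (median 4.48), wide enough to overlap P6, P15 and P28. Lfng fell by 1.98 ± 0.15 on the log2 scale (SE; limma, adjusted p = 2.3e-13).

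Hes1 and Hes5, repressors through which Notch keeps retinal progenitors from becoming neurons, both fell. Hes1 (Gene ID 15205, chromosome 16, 30064384 to 30067796, plus strand) was at 48.5, 51.4 and 52.1 CPM at E14, at 48.9, 48.9 and 51.5 CPM at E17 and at 36.4, 32.9, 26.7 and 30.8 CPM at P1. E14 and E17 overlapped and P1 lay below both. It was at 6.08, 7.03 and 7.03 CPM at P6, between 3.77 and 5.09 CPM at P15, between 4.07 and 5.28 CPM at P28 and between 3.15 and 7.04 CPM at P60 (median 4.65). The mature ages overlapped, and P60 also overlapped P6.

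Hes5 (Gene ID 15208, chromosome 4, 154960923 to 154962371, plus strand) was at 37.8, 36.2 and 31.4 CPM at E14, at 41.8, 43.3 and 40.6 CPM at E17 and at 41.3, 36.3, 33.7 and 30.4 CPM at P1, where it overlapped both earlier ages. It was at 4.52, 5.30 and 6.21 CPM at P6, at 2.54, 1.45, 3.16 and 1.38 CPM at P15 and at 2.27, 2.11, 2.03 and 2.39 CPM at P28. The 6 libraries of P60, from 2.45 to 4.67 CPM (median 4.17), all lay above those of P28. From embryonic to mature retina, the log2 fold change was -3.20 ± 0.11 for Hes1 and -3.44 ± 0.12 for Hes5 (SE; limma, adjusted p = 1.2e-22 and 2.3e-22). Their log2 ratio within a library, Hes5 to Hes1, was -0.38 ± 0.20 (SD) in the 6 embryonic and -0.57 ± 0.44 in the 14 mature libraries. The exact permutation test (two-sided) did not separate the difference of -0.19 from 0 (p = 0.34). By age the mean ratio was -0.520 at E14, -0.242 at E17, 0.156 at P1 and -0.288 at P6. It was -0.775 at P15, -0.835 at P28 and -0.250 at P60. The test left out P1 and P6 and did not compare ages within a group, so it does not show a constant ratio.

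Hey1, a relative of the Hes genes with a known part in blood vessels, had the smallest fall of the 9. Hey1 (Gene ID 15213, chromosome 3, 8663359 to 8667256, minus strand) was at 17.4, 17.1 and 18.4 CPM at E14, at 12.9, 13.1 and 10.4 CPM at E17 and at 8.83, 9.58, 7.58 and 9.94 CPM at P1. These 3 ages did not overlap. It was at 9.75, 8.33 and 7.31 CPM at P6, overlapping P1, and at 4.13 to 6.83 CPM over the mature libraries. Hey1 fell by 1.37 ± 0.10 on the log2 scale (SE; limma, adjusted p = 5.3e-14).

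By steps between neighbouring ages, the most of the 10 genes changed between P1 and P6. In that step 8 of the 10 genes fell and Jag1 rose, while 6.74% of all features fell and 6.3% rose. The median log2 fold change of the 10 genes was -2.07, against -0.03 over all features. The log2 fold change was -2.52 ± 0.18 for Hes5, -2.47 ± 0.18 for Dll3, -2.25 ± 0.21 for Dll4, -2.10 ± 0.11 for Notch1 and -1.19 ± 0.20 for Notch3 (SE; limma, adjusted p at most 1.1e-05). It was -2.08 for Hes1, -2.07 for Dll1 and -2.02 for Lfng. Jag1 rose by 2.10 ± 0.13 (limma, adjusted p = 3.1e-14). Hey1 was the exception, at -0.08 ± 0.15 (limma, adjusted p = 0.73).

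From P6 to P15, 5 of the 10 genes fell and Jag1 rose, against 3.31% of all features falling and 4.74% rising. The log2 fold change was -1.73 ± 0.11 for Notch1, -1.35 ± 0.21 for Dll4, -1.32 ± 0.18 for Dll3, -1.05 ± 0.18 for Hes5 and -1.03 ± 0.16 for Dll1 (SE; limma, adjusted p at most 3.5e-05). Jag1 rose by 1.68 ± 0.13 (limma, adjusted p = 1.6e-11). Hes1, at -0.56, and Hey1, at -0.53, passed the adjusted p (0.0092 and 0.007 by limma) but not the minimum fold change. Dll1 and Hes5 were close to that minimum. With median-of-ratios scaling, or without P6 replicate 3, neither reached it, which left 4 of the 6 genes. Dll1 alone fell short of it without P6 replicate 2, P15 replicate 1 or P15 replicate 3. Hes5 alone fell short without P15 replicate 2 or P15 replicate 4.

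The embryonic and late steps held no gene past both thresholds. From E14 to E17, 3.6% of all features did so in either direction, and of the 10 genes Notch1 (0.36), Hey1 (-0.51) and Jag1 (-0.76 ± 0.14) passed the adjusted p alone (limma, adjusted p = 0.04, 0.037 and 0.0003). The p of Notch1 and that of Hey1 were above 0.05 without any 1 of the 6 libraries compared, while that of Jag1 was at most 0.009 in every alternative run. Unadjusted, 4 of the 10 were under 0.05, and edgeR on recovered reads called none past both thresholds.

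From E17 to P1, 1.84% of all features passed both thresholds. Notch3, at -0.99 ± 0.20 (limma, adjusted p = 0.00071), lay at the edge of the minimum fold change and was past it with edgeR on recovered reads. Hes1 (-0.64) and Notch1 (0.37) passed the adjusted p alone (limma, 0.011 and 0.023), and 5 of the 10 were under 0.05 unadjusted. Dll1 and Lfng, at 0.43 and 0.46, did not pass (limma, adjusted p = 0.093 and 0.27), although in both the P1 libraries lay above those of E17.

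From P15 to P28, 0.384% of all features and none of the 10 genes passed both thresholds by limma, and edgeR on recovered reads also called none. Only Jag1 was under 0.05 unadjusted, with a difference of 0.28 ± 0.12 on the log2 scale. From P28 to P60, where 0.453% of all features passed, Hes5 (0.61 ± 0.16), Lfng (0.62 ± 0.20) and Dll1 (0.41 ± 0.13) passed the adjusted p alone, all with higher values at P60 (limma, adjusted p = 0.014, 0.037 and 0.043). Unadjusted, 4 of the 10 were under 0.05, and edgeR on recovered reads called none past both thresholds. In a limma fit of P28 and P60 alone the adjusted p-values of Hes5, Lfng and Dll1 were 0.17, 0.24 and 0.21. Lfng and Dll1 were both highest in P60 replicate 3, at 9.03 and 21.8 CPM. Without it the differences were 0.46 and 0.30 (limma, adjusted p = 0.096 and 0.11).

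**Figure D3:**
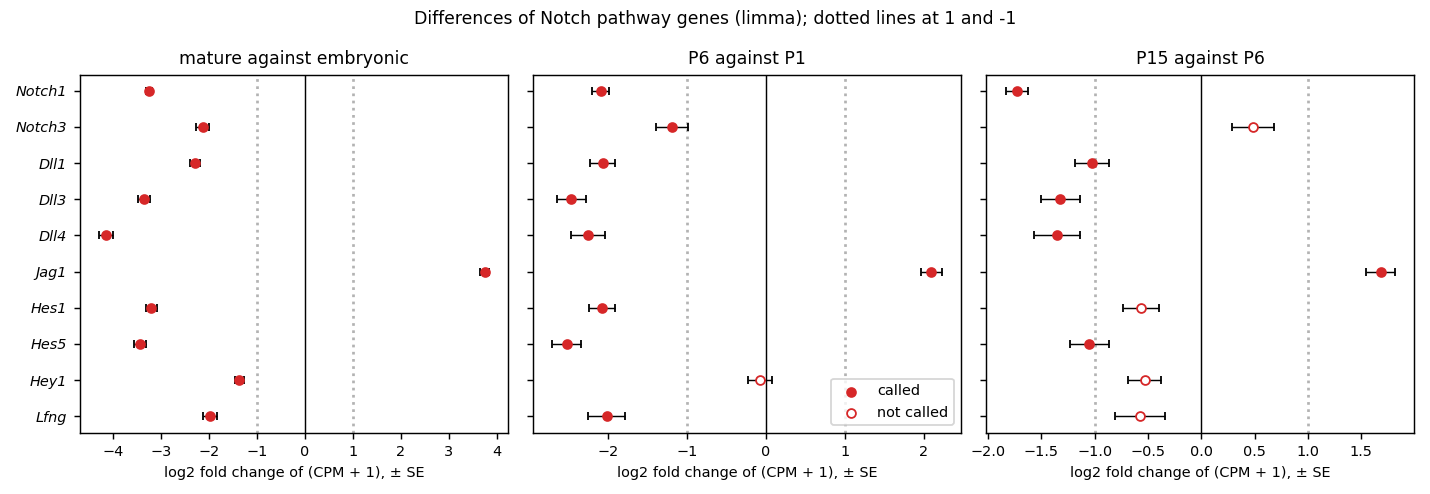
Log2 fold changes of (CPM + 1) with SE (horizontal axes) of the 10 genes in mature against embryonic retina, P6 against P1 and P15 against P6. Filled points passed both thresholds of the limma test and open points did not; Jag1 alone lies to the right of 1 in each panel, and Hey1 is at -0.08 in P6 against P1.

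In the wider pathway, 61 genes were listed by role and 60 could be tested, Neurl3 being too low. From embryonic to mature retina 21 of the 60 fell and 3 rose, with a median log2 fold change of -0.61. Without the 10 genes above, 12 of 50 fell and 2 rose, 36 did not pass, and the median was -0.49. The same 16.1% falling and 14.9% rising over all features is the background.

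Genes that act on the ligands went in both directions. Of 4 tested ubiquitin ligases that act on the ligands, Neurl1a rose by 2.46 ± 0.09 and Neurl1b fell by 1.83 ± 0.13 on the log2 scale. Neurl1a went from 9.68 CPM at E14 to 77.4 CPM at P60 in mean. Of 5 genes of receptor glycosylation, Lfng and its fellow Fringe enzyme Mfng fell, Mfng by 2.50 ± 0.13. Of 9 genes of the proteases that cut the receptor, Adam10, which makes the outer cut, fell by 1.63 ± 0.05, and the other 8, with the subunits of gamma-secretase among them, did not pass.

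In the nucleus, Rbpj, the DNA-binding partner of cleaved Notch, fell by 2.41 ± 0.07 on the log2 scale, from 328 CPM at E14 (lowest library 321) to 49.7 CPM at P60 (highest library 64.8). The coactivator gene Maml3 fell by 1.39 ± 0.06, and 6 of the 8 genes of this complex did not pass. Of 7 corepressor genes, Tle1 and Tle3, which encode Groucho proteins used by Hes repressors, fell, with log2 fold changes of -2.04 ± 0.06 and -1.54 ± 0.09. Of 9 genes for inhibition and turnover, Nrarp, a target gene whose product dampens the pathway, fell by 3.38 ± 0.12, and the Deltex genes Dtx4 and Dtx1 fell, with -2.80 ± 0.07 and -1.68 ± 0.09.

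Of 7 genes listed as targets, 5 fell and 1 rose. Heyl fell by 3.97 ± 0.14 on the log2 scale, after a mean of 16.9 CPM at E14 and 89.6 CPM at P1. Hes6 fell by 3.65 ± 0.10, although it is known as a promoter of neuronal differentiation that opposes Hes1, and not as a plain Notch target. Hey2, named because it was the only one to rise and after its values were seen, rose by 1.92 ± 0.08 with a mean of 3.28 CPM at E14, a maximum of 38.0 CPM at P1 and 23.98 CPM at P60. Hes7 was at 0.17 (limma, adjusted p = 0.28). For each fall or rise in the 3 paragraphs on the wider pathway, the adjusted p by limma was at most 2.3e-13.

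**Figure D4:**
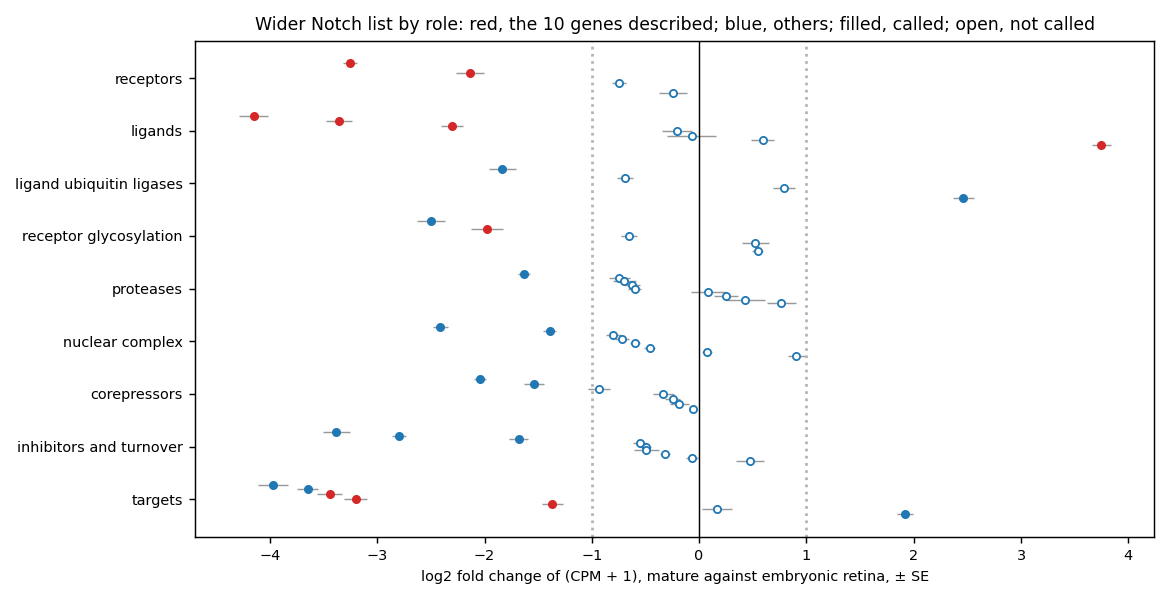
Log2 fold changes of (CPM + 1) with SE, mature against embryonic retina, of the 60 tested genes of the wider Notch list, one row per role. Red marks the 10 genes and blue the others, filled points passed both thresholds and open ones did not; 21 filled points lie left of -1 and 3 right of 1.

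Markers of other cells moved over the same ages. The summed CPM of 8 cycling progenitor markers was 4905 to 6054 in embryonic libraries, 4512 to 4903 at P1, 153 to 205 at P6 and 27.2 to 45.9 in mature libraries; all 8 fell, and Cdk1 and Fgf15 were at 0 in every P28 library. Of 7 neurogenic markers, 5 fell between embryonic and mature retina, and Olig2 was at 0 at P28 and P60. Their summed CPM was 709 to 862 in embryonic libraries, 1100 to 1262 at P1, 749.8 to 832 at P6 and 217 to 380 in mature libraries, so that P6 lay within the embryonic range. From P1 to P6 the progenitor sum went from at least 4512 to at most 205 CPM, and the neurogenic sum from at least 1100 to at most 832 CPM. The part of these cells in the fall of the 9 genes was not tested.

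Of 10 Müller glia markers 7 rose and 1 fell (989 to 1069 CPM embryonic, 677 to 714 CPM at P6, 1521 to 1881 CPM mature), of 5 astrocyte markers 3 rose and 1 fell (7.90 to 14.1 and 94.7 to 154 CPM), and all 7 rod markers rose (22.0 to 30.6 and 18030 to 31650 CPM). Of 10 endothelial markers 5 rose and 1 could not be tested (167 to 337 and 215 to 265 CPM). Of 8 mural cell markers 2 rose (6.54 to 16.5 and 32.5 to 131 CPM), with Kcnj8 at 0 in all embryonic libraries. Of 6 markers of retinal pigment epithelium 3 rose and 1 could not be tested (3.17 to 8.49 and 11.3 to 64.5 CPM). None of the lens markers found (4 of 6; 1.77 to 3.20 and 0.878 to 8.10 CPM) and none of the blood markers found (3 of 4; 11.7 to 17.9 and 18.5 to 37.9 CPM) passed both thresholds. The part of these cells in the rise of Jag1 was not tested.

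As a description, the features with a Gene ID whose course over the 7 age means was most like that of each gene were sought, as the smallest root mean square difference on the centred log2 scale. All ages share these libraries, and no test was made. Notch1 and Dll3 were each other's nearest, at 0.151, although the mature values of Dll3 rest on 0 to 4 reads. This likeness was sought on log2(CPM + 1) only. From embryonic to mature retina the log2 fold change of Dll3 was -5.69 with a pseudocount of 0.1. That of Notch1 was between -3.29 and -3.17 in every alternative run. The nearest of Lfng was Gm10091, at 0.175, and Dll1 came second, at 0.193. The nearest of Dll1 was Fanca (0.155), of Dll4 Pdzrn3 (0.145), of Hes5 Topbp1 (0.158), of Notch3 2610104F20Rik (0.184) and of Hey1 Gpx1 (0.0907). Jag1 had the farthest nearest feature, Rabgef1, at 0.261.

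Promoter windows of RefSeq (GRCm38.p6), read over the 250 bases before the start given there, matched 8 of the 10 genes in 9 windows. Hes1 and Hey1 had no entry. That start is not always the edge of the gene span given above. The Notch1 window, 26503823 to 26504072, lay inside its span. Annotated exons covered all 250 bases of the Dll3 window, 153 of the Dll1 window at 15375824 to 15376073 and 124 of the Jag1 window. For these genes, a lack of a match does not describe sequence upstream of the whole gene. The core letters of the RBPJ binding site, TGGGAA, on either strand were found in the windows of Hes5 and Lfng, and 21.6% of 32851 windows of this length held them. The letters bound by Hes repressors were found in 4 of the 8 matched genes for CACNAG (36.7% of all windows) and in 5 for CACGNG (23.5%). The counts are of genes, while the shares are of windows. G and C made up 52.0% (Dll3) to 71.6% (Hes5) of the windows of these genes, against a median of 52.4% over all windows. The shares were not matched for this. These are matches of letters and not sites shown to be bound. The stretches with the RBPJ letters are shown because Hes5 and Lfng are the only members with a match, and capitals mark the matches in plus-strand orientation, which is that of both genes. Those of Hes5 lie at chr4:154960685-154960714 and chr4:154960829-154960858, and that of Lfng at chr5:140607091-140607319, upstream of its first annotated exon.
Hes5 upstream match: agggcgagcgcgTTCCCAcagcccggacat
Hes5 downstream match: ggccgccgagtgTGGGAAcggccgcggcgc
Lfng: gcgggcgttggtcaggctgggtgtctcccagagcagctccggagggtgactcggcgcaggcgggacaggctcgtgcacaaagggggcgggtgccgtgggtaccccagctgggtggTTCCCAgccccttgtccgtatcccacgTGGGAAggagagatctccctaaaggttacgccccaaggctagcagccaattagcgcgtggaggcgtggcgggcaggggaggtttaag

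In Hes5 the matches began 226 and 82 bases before the start in RefSeq, once in each direction. In Lfng they began 135 and 108 bases before that start, also once in each direction. The annotation places a gene on the opposite strand over Notch1 (0610009E02Rik and Gm13568), Notch3 (Gm17276), Dll1 (A930024N18Rik), Dll4 (Gm14207) and Hes5 (Gm20421). Whole gene spans were compared, introns included, and overlap of exons was not examined. Whether counting used the strand is not stated, so reads from any stretch where exons of a pair overlap could not be told apart. No gene overlaps Dll3, Jag1, Hes1, Hey1 or Lfng.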

How the data were processed

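RNA-seq of 27 whole retina libraries was used. The authors made total RNA libraries, sequenced single-end reads and aligned them with STAR to mm10 (GRCm38), and deposited 1 table of CPM values (reads scaled to the library's total) with 38168 features (14905 without a Gene ID). The annotation and strand setting of the counting are not given in the sources used here. All columns of values were mapped to a library (0 left out).

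Values were whole multiples of 1 read within 0.05 reads (100% in every library), which gave each library's total of reads assigned to features. The CPM values as deposited were taken as log2(CPM + 1), and the 31760 features that reached 1 CPM in 3 or more libraries were fitted with limma 3.58.1 (trend, R 4.3.3), with age as a factor. Tests were two-sided. Of repeated symbols the row of highest mean was kept. Ratios within libraries were tested by exact permutation (Python 3.11.15, scipy 1.17.1). Lengths are unions of GENCODE exons. edgeR 4.0.16 on recovered reads was an alternative, and others are in the closing section. Precision is set by the totals, and intervals of counts cover counting error only.

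The members and lists were chosen with earlier results of these data known. Named were the 10 genes, called genes of the wider list (at most 3 per role, by size of change) and the 2 nearest courses per gene, of which some are given. Marker lists were given as counts. Results for some genes are not reported here. In simulated reads with 200 genes changed by 1.5 (log2), limma found 184 with 0 false calls for mature against embryonic retina (30840 features) and 174 with 2 for P6 against P1 (30856 features). The changed genes were drawn from those with a mean over 2 CPM. Every other gene was given the same level at all ages, unlike in the real libraries. The simulation therefore does not give the rate of false calls in these data.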

Additional observations from a re-analysis of the deposited data

Results flagged for a closer look

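Of 40 sets examined (the 10 genes at each age with 4 to 6 libraries), 5 held a library far from the others of its age by Dixon's criterion, which chance gives in about 1 in 20. Notch3 was at 10.46 CPM (83 reads) in P1 replicate 2, with the other 3 libraries at 12.51 to 12.66 CPM, and at 9.735 CPM (80 reads) in P15 replicate 3, with the others at 6.058 to 6.323 CPM. Jag1 was at 8.194 CPM (65 reads) in P1 replicate 2 against 5.519 to 5.915 CPM, and at 131.9 CPM (1051 reads) in P60 replicate 3 against 151.9 to 158.4 CPM. Hey1 was at 5.531 CPM (44 reads) in P28 replicate 4 against 4.13 to 4.213 CPM. P1 replicate 2 stood apart for both Notch3 and Jag1. The cause was not tested.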

How the results depend on the processing

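No result changed direction. Without the minimum fold change, 51 genes of the wider list passed (24 with it), as did 3 of the 10 genes for E17 against E14, 3 for P1 against E17 and 3 for P60 against P28 (0 with it in each). From E17 to P1, 1 gene, Notch3, was called with a pseudocount of 0.1, with median-of-ratios scaling, with edgeR and with edgeR without E14 replicate 1 (the last chosen after seeing the data); leaving out 1 library gave 0 to 1. The count for mature against embryonic retina was 8 to 10 and that for P6 against P1 8 to 9; with a mean of at least 10 CPM required, both were 8, as Dll3 and Hey1 were not tested. That for P15 against P6 was 4 to 8. Of 36 results on single genes, 28 stayed on their side of the adjusted p under every alternative run; the 8 others, all under the minimum fold change, were Notch1 and Hey1 (E17 against E14), Notch1 and Hes1 (P1 against E17), Hey1 (P15 against P6) and Dll1, Hes5 and Lfng (P60 against P28). Replicate numbers did not pair libraries (3 of 69 same-numbered pairs had a correlation of deviations over 0.1; 7 of 27 libraries were closest to their own number). With a replicate block the counts were 10, 0, 0, 9, 6, 0 and 0 in the order of the comparisons from mature against embryonic retina and then by age, and Lfng in P60 against P28 had 0.52 (limma, adjusted p = 0.14). The median of all features in mature against embryonic retina was -0.065 by limma and 0.038 by edgeR. From P28 to P60, 24 features rose and 120 fell, against 38 and 79 with median-of-ratios scaling. In a fit of P28 and P60 alone, 6 rose and 4 fell. Without P60 replicate 1 the counts were 48 and 417, and without P60 replicate 3 they were 16 and 32. The share of all features in this step thus depends on the libraries used. Depth limits Dll3 and Dll4 in mature retina, at 0 to 4 and 1 to 13 reads per library.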
